A study of Mus musculus with 15 samples.

Results

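The genes described here are 10 pattern recognition receptors and adaptors, *Tlr2*, *Tlr6*, *Tlr4*, *Cd14*, *Tlr3*, *Myd88*, *Ticam1*, *Nod1*, *Nod2* and *Ripk2*, out of 23462 genes with a named probe on the arrays. They were chosen as a list of gene names with earlier results of these data known, so counts of called genes among them are a description. Their probes are those whose RefSeq transcript belongs to 1 of these genes. That gave 14 probes, with 2 each for *Tlr3*, *Tlr4*, *Cd14* and *Nod2* and 1 for each of the other genes. All 10 genes had a probe that could be tested, 12 of the 14 probes in all. A gene with 2 probes is represented by the brighter of them. Mouse Embryonic Fibroblasts (MEFs), here the established Balb/c/3T3 clone A31, are connective tissue cells grown from mouse embryos. Controls were MEFs without added cytokine. The dose was 10 ng/ml in MEFs treated by TNFα, 5 ng/ml for TGFß1 and 1 ng/ml for IL-1β, and the last group received 20 ng/ml of IL-6 with 25 ng/ml of its soluble receptor, sIL-6Rα. The stimulation lasted 24 h for controls, TNFα and TGFß1, while the exposure of the IL-1β and IL-6 groups is not stated per group. Each group holds 3 one-color arrays, 15 in all. The methods speak of independent experiments, but which arrays share an experiment is not stated, so the p-values measure the spread between these arrays. All groups come from a single clonal line, which limits them as a model of fibroblasts in tissue.

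A level is the log2 processed signal of a probe minus the 75th percentile of its array, so that 0 is the brightness of the 75th percentile. Before this step the percentile lay between 508 and 683 over the 15 arrays, and 48.3% to 54.8% of the probes per array were well above background. Intensities are not counts, and the number of arrays limits the precision. Levels of different probes are not comparable with each other. An array is named by its group and the number that opens its label, and these numbers form 3 runs (1 to 5, 6 to 10 and 11 to 15) with an array of every group in each. The arrays lay on 2 slides. IL-6 13, IL-1β 15, TGFß1 2 and 12, TNFα 4 and 9, and control 6 were on slide 2, and the other arrays on slide 1. A gene was called when its q-value in limma's moderated test was below 0.05 and its fold-change at least 1.5. All 8 fibroblast markers checked, such as *Col1a1* and *Pdgfra*, were well above background on every array. Their summed signal was 395687 to 541366 on control arrays, 293938 to 421812 with TNFα, 375799 to 462325 with TGFß1, 402855 to 585407 with IL-1β and 432194 to 502775 with IL-6. Of these markers 4 were called lower and 1 higher with TNFα, 2 lower and 1 higher with TGFß1, and the part of this in the results was not tested. Of 8 leukocyte markers, *Ptprc*, *Adgre1* and *Lyz2* were not well above background on any array, *Cd79a* was on 2 arrays, and *Cd68*, *Csf1r*, *Itgam* and *Cd3e* were on all 15. Their summed signal was 3750 to 9744 on control arrays, 4668 to 9425 with TNFα, 4295 to 8018 with TGFß1, 4731 to 9786 with IL-1β and 4309 to 10473 with IL-6. This sum moved with the slide, at 3750 to 4865 on the 8 arrays of slide 1 and 7753 to 10473 on the 7 arrays of slide 2, which held 2 of 3 arrays with TNFα and with TGFß1 and 1 of 3 controls. The sum mainly follows the probe of *Itgam*, whose levels ran from 2.54 to 3.86, while the highest level of any other leukocyte marker was -0.16, for *Csf1r*. It is therefore no measure of leukocyte content. Differences within slides are given beside the called genes. Of the 4 leukocyte markers tested 0 were called in a comparison with control by limma, and 0 had an unadjusted p below 0.05. In such cultures a lower level in every cell and a smaller share of expressing cells cannot be told apart.

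Pattern recognition receptors bind molecules that microbes or damaged cells carry. Toll-like receptors sit in the plasma membrane or in endosomes. TLR2 pairs with TLR6 or TLR1 and binds bacterial lipopeptides, TLR4 binds lipopolysaccharide that CD14 hands over, and TLR3 binds double-stranded RNA. MyD88 is the adaptor of most Toll-like receptors and of the IL-1 receptor, while TRIF, encoded by *Ticam1*, serves TLR3 and TLR4. NOD1 and NOD2 detect peptidoglycan fragments in the cytosol and signal through the kinase RIPK2. These routes converge on NF-κB, a transcription factor that TNFα and IL-1β also activate through receptors of their own.

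The promoters of *Tlr2* and *Tlr3* are shown because they hold a match to a site of NF-κB, and that of *Nod2* because this gene had the largest fitted rise with TNFα and its promoter holds none. The other genes whose promoters were searched, *Myd88*, *Ticam1*, *Nod1* and *Tlr6*, held no such match either and are not shown. The sequences are the 250 bases upstream of the annotated start from the RefSeq table of the assembly GRCm38.p6, printed 5′ to 3′ on the gene's strand, with matches to the kappaB consensus of NF-κB in capitals. The *Tlr2* window is chr3:83841609-83841858 on the minus strand, the *Tlr3* window is chr8:45410381-45410630 on the minus strand, and the *Nod2* window is chr8:88647097-88647346 on the plus strand.
Tlr2: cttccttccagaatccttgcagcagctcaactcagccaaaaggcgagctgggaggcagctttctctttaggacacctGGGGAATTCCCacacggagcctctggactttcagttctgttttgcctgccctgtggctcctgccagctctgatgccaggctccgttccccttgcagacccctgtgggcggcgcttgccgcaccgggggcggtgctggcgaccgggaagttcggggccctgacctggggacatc
Tlr3: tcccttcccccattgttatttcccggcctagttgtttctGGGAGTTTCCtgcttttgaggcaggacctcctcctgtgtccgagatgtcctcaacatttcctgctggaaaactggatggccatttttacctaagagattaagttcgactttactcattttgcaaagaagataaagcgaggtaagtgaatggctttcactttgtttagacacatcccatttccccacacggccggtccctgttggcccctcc
Nod2: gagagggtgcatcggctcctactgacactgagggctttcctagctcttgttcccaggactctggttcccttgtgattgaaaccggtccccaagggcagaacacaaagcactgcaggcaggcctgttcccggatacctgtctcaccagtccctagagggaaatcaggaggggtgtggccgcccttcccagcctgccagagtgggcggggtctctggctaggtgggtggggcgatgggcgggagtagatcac

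Promoters of 7 of the 10 genes were searched, in 9 entries. For the 10 genes, entries on chromosome 18, where *Cd14* lies, were not used. Both strands were searched. The kappaB consensus occurred in 1281 of all 32851 promoters of this length, or 3.90%. Among the 7 genes searched it occurred in 2, *Tlr2*, where a pair of overlapping matches ran from base -173 to base -163, and *Tlr3*, from base -211 to base -202. The *Nod2* window held no match. GAAA followed by any 2 bases and a further GAAA, the core shared by sites of interferon regulatory factors, occurred in 2.98% of all promoters. It was found before *Myd88* at bases -40 to -31 and before *Tlr6*, where a pair of overlapping matches ran from base -116 to base -101. TTCNNNGAA, the core of STAT sites, occurred in 7.02% of all promoters and was found before *Nod1* at bases -193 to -185 and before *Myd88* at bases -46 to -38, overlapping the other match there. A match describes letters only, and a window without a match says nothing about a factor.

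The comparisons with control ask which of these genes respond to each cytokine. In MEFs treated by TNFα, *Nod2*, *Ripk2*, *Tlr2* and *Cd14* were higher and *Ticam1* was lower. In MEFs treated by TGFß1, *Nod2* and *Ripk2* were higher, and *Tlr4*, *Tlr2*, *Ticam1* and *Tlr6* were lower. *Nod2* was the single gene called with IL-1β. With TNFα 4 of the 10 genes were called higher and 1 lower, where 4.12% of all 29333 tested probes were called higher and 6.06% lower. With TGFß1 the counts were 2 higher and 4 lower, against 7.17% and 10.8% of all probes. With IL-1β 1 was called higher and 0 lower, against 0.245% and 0.00682%. That call, of *Nod2*, is a description, since its probe passed the filter through the treated groups and not the controls, and it was lost with the normexp background correction (0.40, q = 0.214) and when only the compared groups were fitted (q = 0.0682). *Nod2* is also 1 of the genes counted as higher with TNFα and with TGFß1, so those counts are a description as well. With IL-6 0 of the 10 were called by limma, against 0.0648% of all probes, and *Nod2* and *Myd88* were the 2 of the 10 with an unadjusted p below 0.05 there. The median log2 fold-change of the 10 genes was 0.65 with TNFα, -0.48 with TGFß1, 0.29 with IL-1β and 0.08 with IL-6, beside medians of all tested probes of 0.04, 0.05, 0.00 and 0.00. With the slide in the model *Tlr4* and *Tlr6* were called lower with TNFα as well, which gives 4 higher and 3 lower, and the calls with the other cytokines stayed at the same numbers.

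**Figure D1:**
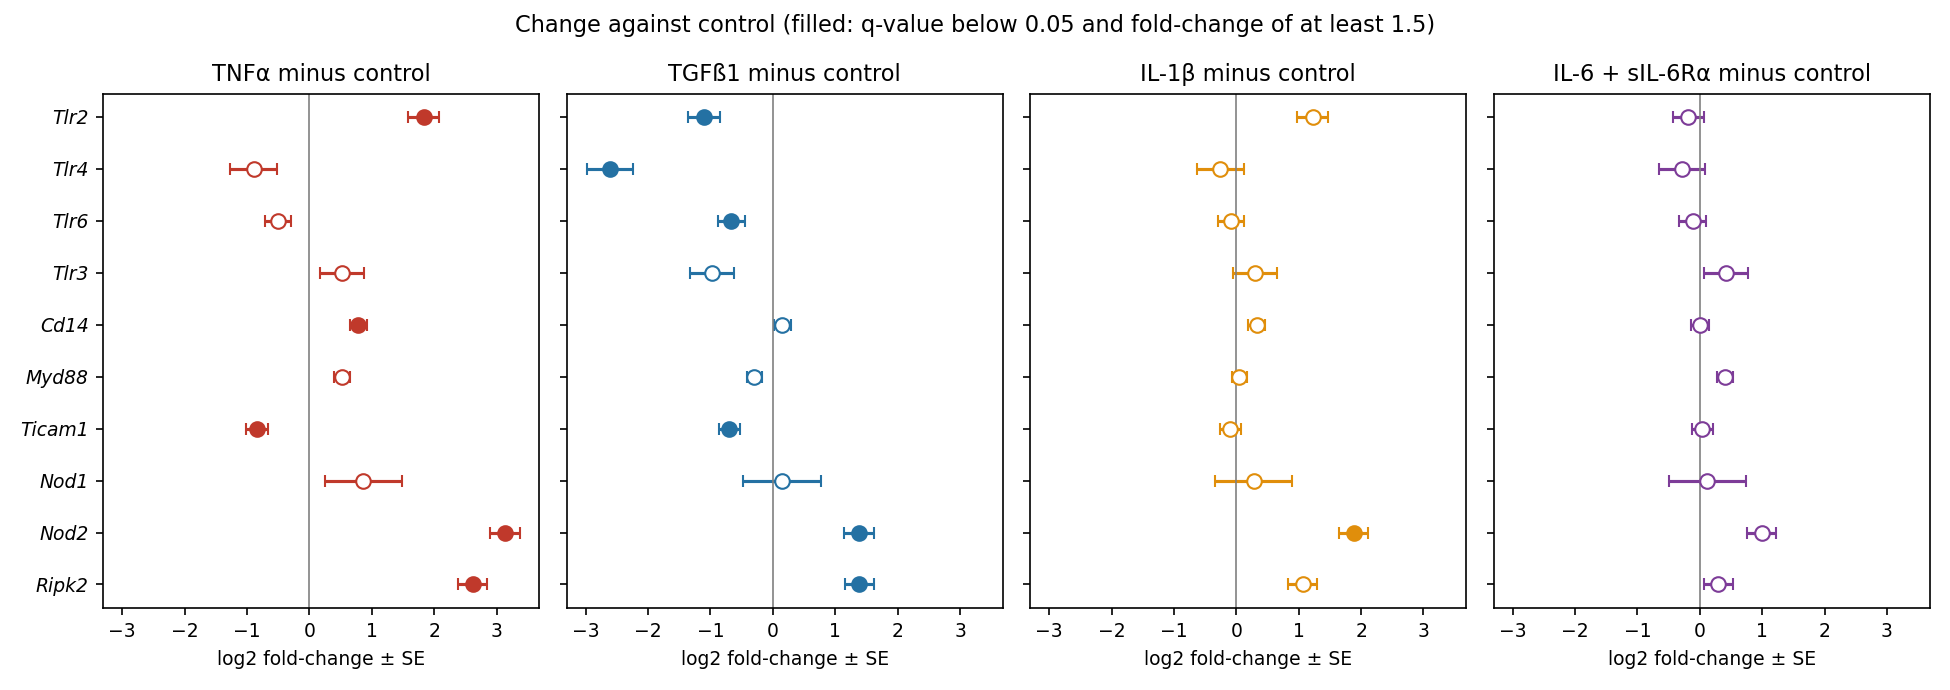
Log2 fold-change against control of the 10 genes (rows) for each cytokine (panels), with horizontal bars for the standard error of limma's fit over 15 arrays; filled points were called at a q-value below 0.05 and a fold-change of at least 1.5. *Nod2* and *Ripk2* lay on the right with both TNFα and TGFß1, and *Tlr2* lay on opposite sides, at 1.83 with TNFα and -1.10 with TGFß1.

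*Tlr2* (NM_011905), the receptor of bacterial lipopeptides, had the largest difference between TNFα and TGFß1 of the 10 genes. Its levels were -0.35, -0.33 and -0.46 on control arrays 1, 6 and 11. They were 1.19, 1.92 and 1.24 on TNFα arrays 4, 9 and 14, and -1.44, -1.46 and -1.54 on TGFß1 arrays 2, 7 and 12. All TNFα arrays lay above and all TGFß1 arrays below the controls, with no overlap. The log2 fold-change was 1.83 ± 0.25 (SE) with TNFα (q = 0.000506) and -1.10 ± 0.25 with TGFß1 (q = 0.00763). The levels were 0.42, 1.47 and 0.63 on IL-1β arrays 5, 10 and 15, and -0.68, -0.28 and -0.72 on IL-6 arrays 3, 8 and 13. All IL-1β arrays lay above the controls, but the difference of 1.22 ± 0.25 did not pass the test (q = 0.102). It passed only with the slide and the run of label numbers in the model (q = 0.0132). The IL-6 arrays overlapped the controls, with a difference of -0.18 ± 0.25. The order of the group means was TNFα, IL-1β, control, IL-6 and TGFß1, and of the neighbours in this order IL-6 and TGFß1 alone passed the test.

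*Tlr6* (NM_011604), the partner of *Tlr2*, was called lower with TGFß1 and was not called with TNFα. Its levels were -2.22, -1.61 and -2.17 on control arrays 1, 6 and 11, -2.63, -2.66 and -2.69 on TGFß1 arrays 2, 7 and 12, and -2.53, -2.27 and -2.72 on TNFα arrays 4, 9 and 14. Control 6 stood above the other controls, and both treated groups lay below all controls. The log2 fold-change was -0.66 ± 0.21 with TGFß1 (q = 0.0361) and -0.51 ± 0.21 with TNFα (q = 0.140). The TGFß1 call was lost without control 6, at -0.47 (q = 0.133), and without TGFß1 2, 7 or 12, at -0.68, -0.66 and -0.65. It was also lost with the normexp correction, at -0.43, without a filter on dim probes (q = 0.0832) and when only the compared groups were fitted (q = 0.0598). With the slide in the model it was -0.77 (q = 0.00361) with TGFß1, and the TNFα difference of -0.62 passed (q = 0.0189). The levels were -2.44, -2.002 and -1.81 with IL-1β and -2.44, -2.01 and -1.89 with IL-6, and both groups overlapped the controls. The group means ran from control through IL-1β, IL-6 and TNFα to TGFß1, and no neighbours in this order passed the test.

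*Tlr4* (NM_021297), the lipopolysaccharide receptor, had the largest fall of the 10 genes. On control arrays 1, 6 and 11 its levels were -1.58, -0.43 and -1.43, and on TGFß1 arrays 2, 7 and 12 they were -3.88, -3.91 and -3.48. No TGFß1 array came near a control, and the log2 fold-change was -2.61 ± 0.37 (q = 0.000408), a fold-change of 6.10. On TNFα arrays 4, 9 and 14 the levels were -2.32, -1.51 and -2.29. TNFα 9 lay between the controls, and the difference of -0.89 ± 0.37 did not pass (q = 0.147). With the slide in the model it was -1.06 and passed (q = 0.0433). The levels were -2.07, -0.99 and -1.14 with IL-1β and -2.01, -1.10 and -1.19 with IL-6 and both groups overlapped the controls, with IL-1β 5 and IL-6 3 below them all. The order of the means was control, IL-1β, IL-6, TNFα and TGFß1, in which TNFα and TGFß1 were the neighbours that passed the test. The other *Tlr4* probe was well above background on 1 control and 1 IL-1β array and was not tested.

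*Cd14* (NM_009841), which delivers lipopolysaccharide to TLR4, rose with TNFα. Its levels were -1.40, -1.61 and -1.64 on control arrays 1, 6 and 11 and -0.72, -0.65 and -0.93 on TNFα arrays 4, 9 and 14. All TNFα arrays lay above all others in the series, and the log2 fold-change was 0.78 ± 0.14 (q = 0.00290). The other probe gave 0.64 (q = 0.0460) and was called as well. The levels were -1.52, -1.19 and -1.50 with TGFß1, -1.16, -1.23 and -1.29 with IL-1β, and -1.29, -1.65 and -1.70 with IL-6. The IL-1β arrays lay above the controls without passing the test (0.32 ± 0.14, q = 1.00), and the TGFß1 and IL-6 arrays overlapped them. The means ran from TNFα through IL-1β, TGFß1 and IL-6 to control, and no neighbours passed the test.

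*Tlr3* (NM_126166), the endosomal receptor of double-stranded RNA, was dim and was not called against control with any cytokine unless the slide and the run of label numbers were in the model. Its levels were -4.24, -3.54 and -3.87 on control arrays 1, 6 and 11, and -4.70, -4.43 and -5.45 on TGFß1 arrays 2, 7 and 12, of which TGFß1 12 was not well above background. All TGFß1 arrays lay below all controls, with a difference of -0.98 ± 0.35 (q = 0.0631). With the slide in the model it did not pass (-0.92, q = 0.0701), and with the slide and the run it was called (-0.96, q = 0.00237). The levels were -3.41, -2.91 and -3.75 with TNFα, -3.80, -3.11 and -3.85 with IL-1β, and -3.46, -2.86 and -4.06 with IL-6. These 3 groups overlapped the controls. The means ran from TNFα through IL-6, IL-1β and control to TGFß1, and no neighbours passed the test. The second probe was not well above background on any TGFß1 array and was called lower there with the slide in the model (q = 0.0415).

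**Figure D2:**
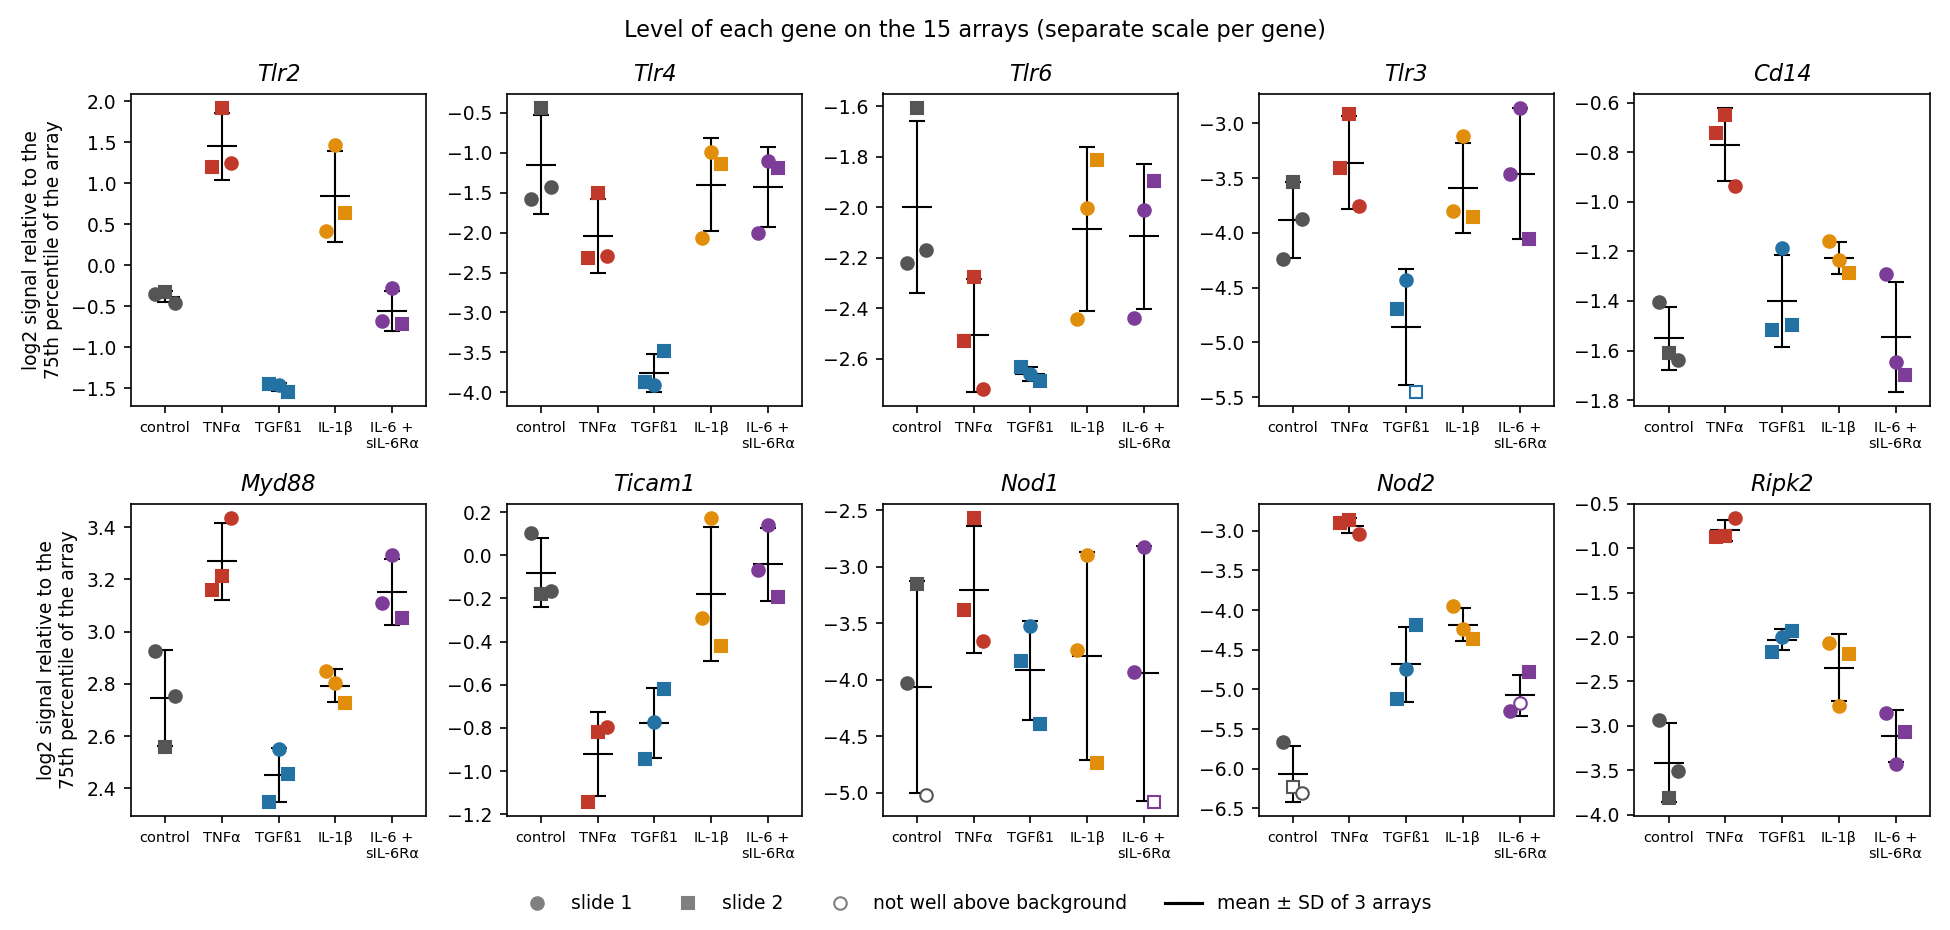
Level of each of the 10 genes (panels, each with its own scale) on the 15 arrays by group, as log2 signal relative to the 75th percentile of the array; circles are slide 1, squares slide 2, open symbols were not well above background, and bars are the mean ± SD of 3 arrays. The TNFα arrays lie above all other arrays for *Cd14*, *Nod2* and *Ripk2*. The TGFß1 arrays lie below all others for *Tlr2*, *Tlr4* and *Tlr3*, and narrowly so for *Myd88*. How often this held over all probes was not counted.

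*Myd88* (NM_010851) encodes the adaptor shared by most Toll-like receptors and the IL-1 receptor. Its levels were 2.92, 2.56 and 2.75 on control arrays 1, 6 and 11, 3.16, 3.21 and 3.43 on TNFα arrays 4, 9 and 14, and 2.35, 2.55 and 2.45 on TGFß1 arrays 2, 7 and 12. The TNFα arrays lay above and the TGFß1 arrays below all controls. The log2 fold-change with TNFα was 0.52 ± 0.12 (q = 0.0138), a fold-change of 1.44, which is below the 1.5 needed for a call. It was called at 0.61 (q = 0.0118) without control 1 and at 0.59 (q = 0.000390) with the slide and the run in the model. With TGFß1 the difference was -0.29 ± 0.12 (q = 0.0982). The levels with IL-6 were 3.11, 3.29 and 3.05, above all controls, with a difference of 0.40 ± 0.12 that did not pass (q = 0.727). With IL-1β they were 2.85, 2.80 and 2.73, within the range of the controls. The means ran from TNFα through IL-6, IL-1β and control to TGFß1, with no neighbours that passed.

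*Ticam1* (NM_174989), the adaptor of TLR3 and TLR4, was called lower with both TNFα and TGFß1, as were *Tlr4* and *Tlr6* once the slide was in the model. Its levels were 0.10, -0.18 and -0.16 on control arrays 1, 6 and 11. They were -1.14, -0.82 and -0.80 on TNFα arrays 4, 9 and 14 and -0.94, -0.77 and -0.62 on TGFß1 arrays 2, 7 and 12. Every array of both treated groups lay below every control. The log2 fold-change was -0.84 ± 0.17 with TNFα (q = 0.00640) and -0.70 ± 0.17 with TGFß1 (q = 0.0105). The TGFß1 call was lost when arrays were centred on their median (q = 0.0719) and with the normexp correction, at -0.58, where the fold-change fell below 1.5. The levels with IL-1β were -0.29, 0.17 and -0.42, and those with IL-6 were -0.07, 0.14 and -0.19, both overlapping the controls. The means ran from IL-6 through control, IL-1β and TGFß1 to TNFα, and IL-1β and TGFß1 were the neighbours that passed. These comparisons with control share the 3 control arrays.

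*Nod2* (NM_145857), the sensor of muramyl dipeptide, had the largest fitted rise of the 10 genes with TNFα, from controls of which 1 of 3 was well above background. Its levels were -5.66, -6.23 and -6.31 on control arrays 1, 6 and 11, of which control 1 alone was well above background. They were -2.90, -2.86 and -3.04 on TNFα arrays 4, 9 and 14, -5.12, -4.74 and -4.19 on TGFß1 arrays 2, 7 and 12, and -3.95, -4.24 and -4.36 on IL-1β arrays 5, 10 and 15. Every array of these 3 groups lay above every control. The probe entered the test through these groups and not through the controls, so a difference from control was built into its selection. The log2 fold-change was 3.13 ± 0.24 with TNFα (q = 5.65e-06), 1.88 ± 0.24 with IL-1β (q = 0.00397) and 1.38 ± 0.24 with TGFß1 (q = 0.00132). With normexp as the background correction, which through its added constant compresses dim signals, these were 1.06, 0.40 and 0.30, the TNFα call alone remained, and its value lay below those of *Ripk2* (1.72) and *Tlr2* (1.65). The IL-6 levels were -5.27, -5.18 and -4.78, above the controls, with 2 of 3 arrays well above background, and the difference of 0.99 ± 0.24 did not pass (q = 0.362). The means ran from TNFα through IL-1β, TGFß1 and IL-6 to control, and TNFα and IL-1β were the neighbours that passed. A second probe was not well above background on any array.

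*Ripk2* (NM_138952), the kinase that acts after NOD1 and NOD2, rose with TNFα and with TGFß1, as *Nod2* did. Its levels were -2.93, -3.81 and -3.50 on control arrays 1, 6 and 11, -0.87, -0.86 and -0.66 on TNFα arrays 4, 9 and 14, and -2.16, -1.998 and -1.93 on TGFß1 arrays 2, 7 and 12. All arrays of both treated groups lay above all controls, and all TNFα arrays above all TGFß1 arrays. The log2 fold-change was 2.62 ± 0.23 with TNFα (q = 2.00e-05) and 1.39 ± 0.23 with TGFß1 (q = 0.00119), fold-changes of 6.14 and 2.61. With the normexp correction they were 1.72 and 0.73 and were still called. The levels with IL-1β were -2.07, -2.78 and -2.19, above all controls, with a difference of 1.07 ± 0.23 that did not pass (q = 0.134) except with the slide and the run in the model (q = 0.0204). The levels with IL-6 were -2.86, -3.43 and -3.06 and overlapped the controls. The order of the means was TNFα, TGFß1, IL-1β, IL-6 and control, and TNFα and TGFß1 were the neighbours that passed.

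*Nod1* (NM_172729), the sensor of a peptidoglycan fragment found mainly in Gram-negative bacteria, was not called in any of the 10 comparisons over group means alone. Its levels were -4.02, -3.15 and -5.02 on control arrays 1, 6 and 11, of which control 11 was not well above background, and -3.38, -2.57 and -3.65 on TNFα arrays 4, 9 and 14. The groups overlapped, and their difference was 0.86 ± 0.62 (q = 0.419). The levels were -3.83, -3.53 and -4.39 with TGFß1, -3.73, -2.90 and -4.73 with IL-1β, and -3.93, -2.82 and -5.08 with IL-6, all overlapping the controls. The means of the 5 groups lay between -4.07 for control and -3.20 for TNFα, and no neighbours in their order passed. With the slide and the run in the model TNFα was called above control (0.90, q = 0.0159) and above TGFß1 (0.72, q = 0.0366), and IL-6 below TNFα (-0.78, q = 0.0322).

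Within slides, where 1 or 2 arrays of a group meet 1 or 2 controls, the called differences kept their direction. With TNFα, *Tlr2* differed from control by 1.65 on slide 1 and 1.89 on slide 2, *Nod2* by 2.94 and 3.35, *Ripk2* by 2.56 and 2.94, *Cd14* by 0.59 and 0.93, and *Ticam1* by -0.77 and -0.80. These values are differences of mean log2 levels, and each was larger in size on slide 2. With TGFß1, *Tlr4* differed by -2.41 and -3.24, *Tlr2* by -1.06 and -1.16, *Tlr6* by -0.47 and -1.06, *Ticam1* by -0.74 and -0.60, *Nod2* by 1.25 and 1.58, and *Ripk2* by 1.22 and 1.76. *Tlr6* differed most between the slides in proportion to its size. *Nod2* with IL-1β differed by 1.89 and 1.87. *Nod1* did not keep its direction, at 1.00 and -0.96 with TGFß1, 1.21 and -1.58 with IL-1β, and 1.15 and -1.93 with IL-6.

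**Figure D3:**
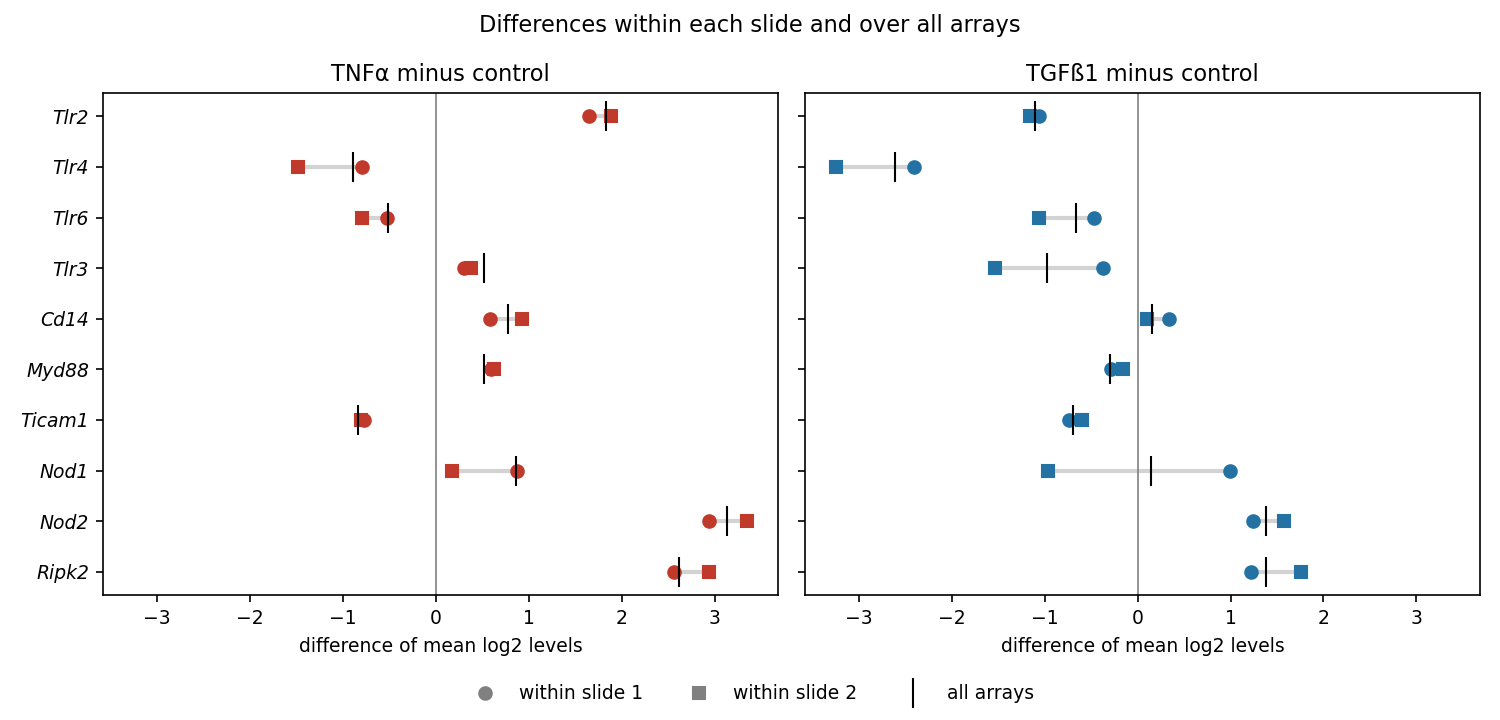
Difference of mean log2 levels from control for the 10 genes (rows) with TNFα (left) and TGFß1 (right), within slide 1 (circles), within slide 2 (squares) and over all arrays (vertical bars). The called genes stay on 1 side of 0, while *Nod1* with TGFß1 lies at 1.00 on slide 1 and -0.96 on slide 2.

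The direct comparison of TNFα with TGFß1 asks whether the responses to these cytokines differed. It called 7 of the 10 genes, all higher with TNFα, where 11.8% of all tested probes were called in either direction. Their log2 fold-changes were 2.93 ± 0.25 for *Tlr2* (q = 7.26e-06), 1.75 ± 0.24 for *Nod2*, 1.72 ± 0.37 for *Tlr4*, 1.503 ± 0.35 for *Tlr3*, 1.23 ± 0.23 for *Ripk2*, 0.82 ± 0.12 for *Myd88* and 0.63 ± 0.14 for *Cd14*. *Nod2* and *Ripk2*, higher than control with both cytokines, were thus higher again with TNFα. The fold-changes of *Ticam1* (-0.14 ± 0.17), *Tlr6* (0.15 ± 0.21) and *Nod1* (0.72 ± 0.62) did not pass, with q-values of 0.686, 0.736 and 0.537. The *Tlr3* call was lost without TGFß1 12, at 1.21 (q = 0.0543), and without TNFα 9, at 1.28 (q = 0.0579). With the normexp correction the calls of *Tlr4*, *Tlr3* and *Cd14* were lost, at 0.88 (q = 0.0657), 0.57 (q = 0.0517) and 0.52. On the second *Tlr3* probe the level with TNFα was at least 1.87-fold higher, and limma's fitted difference was 1.74 (q = 0.0181). That probe entered the test through the TNFα and IL-6 arrays and not through those of TGFß1, so this difference is a description. The *Cd14* call was lost without TGFß1 12, TGFß1 2 or TNFα 9, at 0.58, 0.57 and 0.57, where the fold-change fell below 1.5. The *Cd14* and *Myd88* calls were lost when arrays were centred on their median, at 0.52 and 0.70, a step that moved the median of all probes from -0.02 to -0.14.

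IL-1β and TNFα, which both activate NF-κB, were compared directly as well. Of the 10 genes 3 were called, against 4.83% of all probes. *Ripk2* and *Nod2* were lower with IL-1β than with TNFα, by a log2 fold-change of -1.55 ± 0.23 (q = 0.00207) and -1.25 ± 0.24 (q = 0.00887). *Ticam1*, which fell with TNFα, was higher with IL-1β by 0.74 ± 0.17 (q = 0.0241). That call was lost without IL-1β 10, at 0.56, without TNFα 4, at 0.63, and without TNFα 9, at 0.79, with q-values of 0.107, 0.114 and 0.0504. It was also lost with median centring (q = 0.115), with the normexp correction, at 0.56, without a filter on dim probes (q = 0.0650) and when only the compared groups were fitted (q = 0.124). *Tlr2* differed by -0.61 ± 0.25, which did not pass (q = 0.204), but it was called with the slide and the run in the model (-0.61, q = 0.0405) and without IL-1β 10, at -0.92 (q = 0.0430). *Tlr4* was higher with IL-1β than with TNFα with the slide and the run in the model (0.80, q = 0.00170) and was not called otherwise.

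IL-1β compared with TGFß1 called 4 of the 10 genes, all higher with IL-1β, against 17.0% of all probes. They were *Tlr4* at 2.35 ± 0.37 (q = 0.000885), *Tlr2* at 2.32 ± 0.25 (q = 6.14e-05), *Tlr3* at 1.27 ± 0.35 (q = 0.0218) and *Ticam1* at 0.60 ± 0.17 (q = 0.0236). The *Tlr3* call was lost without IL-1β 10, at 1.03, and without TGFß1 12, at 0.98, and with the normexp correction, at 0.42. On the second *Tlr3* probe the level with IL-1β was at least 1.12-fold higher without passing (q = 0.122). The *Ticam1* call was lost without IL-1β 10, at 0.42, without TGFß1 2, at 0.52, without TGFß1 7, at 0.60, with the slide in the model, at 0.54, with median centring, at 0.49, with the normexp correction, at 0.43, without a filter on dim probes (q = 0.0596) and when only the compared groups were fitted (q = 0.0745).

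IL-6 with its soluble receptor was compared directly with the other cytokines as well. Against TNFα 5 genes were called, with 8.68% of all probes. *Ripk2*, *Nod2*, *Tlr2* and *Cd14* were lower with IL-6, at -2.32, -2.14, -2.01 and -0.78, and *Ticam1* was higher, at 0.88. The second *Cd14* probe gave -0.58 there and was not called (q = 0.0762). Against TGFß1 6 genes were called, with 16.4% of all probes. *Tlr4*, *Tlr3*, *Tlr2*, *Ticam1* and *Myd88* were higher with IL-6, at 2.32, 1.40, 0.92, 0.74 and 0.70, and *Ripk2* was lower, at -1.09. The *Tlr2* call was lost without IL-6 8, at 0.78, without TGFß1 12, at 0.89, and without TGFß1 2, at 0.94. The *Tlr3* call was lost without IL-6 8, at 1.10, and without TGFß1 12, at 1.11. With the normexp correction the *Tlr2* and *Tlr3* calls were lost, at 0.72 (q = 0.0548) and 0.52 (q = 0.0592), and with arrays centred on their median those of *Myd88* and *Ticam1*, at 0.65 (q = 0.0670) and 0.69 (q = 0.0697). *Tlr6* was called higher than with TGFß1 when the slide was in the model, at 0.66 with IL-6 (q = 0.00928) and 0.69 with IL-1β (q = 0.00709). On the second *Tlr3* probe the level with IL-6 was at least 1.499-fold higher than with TGFß1, and limma's fitted difference was 1.42 (q = 0.0371). It is a description as well, since that probe entered the test through the TNFα and IL-6 arrays. IL-1β against IL-6 called *Tlr2* alone, at 1.40 ± 0.25 (q = 0.0375), with 0.419% of all probes. This call was lost without IL-1β 10, at 1.09, without IL-1β 15, at 1.51, and without IL-6 3, 8 or 13, at 1.34, 1.54 and 1.32.

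Of 83 further genes in 6 lists of the same pathways, 63 were tested. With TNFα 12 were called higher and 2 lower, or 22.2% of those tested, where 4.12% of all probes were called higher and 6.06% lower. The counts with TGFß1 were 2 higher and 20 lower, or 34.9%, beside 7.17% and 10.8% of all probes. Between TNFα and TGFß1 23 were higher with TNFα and 0 lower, or 36.5%, against 11.8% of all probes in either direction. With IL-1β and with IL-6 0 were called by limma, where 7 and 5 had an unadjusted p below 0.05. Some of these genes passed the filter only through the group in which they were bright, so the counts are a description.

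Among the other Toll-like receptors 4 of 8 were tested. *Tlr1*, the other partner of *Tlr2*, was lower with TNFα (-1.10, q = 0.00406) and with TGFß1 (-2.72, q = 4.29e-06), where 1 of 3 arrays was well above background. Of the receptor partners and chaperones 6 of 8 were tested, with 0 called with TNFα and 0 at an unadjusted p below 0.05. With TGFß1 2 were lower: *Lbp*, the lipopolysaccharide-binding protein, was at least 2.36-fold lower, and *Unc93b1*, the chaperone of endosomal Toll-like receptors, was at -0.87. The medians of these lists lay at 0.32 and -0.10 with TNFα and at 0.27 and -0.10 with TGFß1. Of all probes 6.06% were called lower with TNFα and 10.8% lower with TGFß1.

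Of the other adaptors and kinases 20 of 21 were tested, with 2 called higher and 1 lower with TNFα and 1 higher and 4 lower with TGFß1. These are 10.0% and 5.00% with TNFα and 5.00% and 20.0% with TGFß1, beside 4.12%, 6.06%, 7.17% and 10.8% of all probes. *Ikbke*, a kinase that activates interferon regulatory factors, was higher with TNFα (1.74, q = 1.45e-05) and lower with TGFß1 (-1.12). *Traf3*, which acts after TRIF, was higher with TNFα (0.95), and *Sarm1*, an inhibitory adaptor, was lower with TNFα (-0.80). With TGFß1 the largest falls were those of *Irak3*, an inhibitor of IRAK signalling (-2.31, with 2 of 3 arrays well above background), and *Irf7*, a transcription factor of the interferon response (-1.63). The medians of the list were -0.01 with TNFα and -0.03 with TGFß1. With the slide in the model *Irf7* was called higher with TNFα, and *Irak2*, a kinase after MyD88 and the single gene of the list called higher with TGFß1 (0.64), was no longer called.

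Of the other NOD-like receptors and their partners 17 of 23 were tested, with 4 called higher and 0 lower with TNFα and 1 higher and 7 lower with TGFß1. The share called higher was 23.5% with TNFα and the share called lower 41.2% with TGFß1, beside 4.12% and 10.8% of all probes. *Slc15a3*, a transporter of muramyl dipeptide, was not well above background on any control and was at least 3.88-fold higher with TNFα. *Birc3*, a ubiquitin ligase that acts on RIPK2, was at 2.25, *Casp4*, which binds lipopolysaccharide in the cytosol, was at 1.48, and *Birc2*, a relative of *Birc3*, was at 0.84. With TGFß1 *Casp4* fell by 1.92 on the log2 scale and *Casp1*, the protease of inflammasomes, fell by 1.69. *Nlrp1b* was called lower as well (q = 0.0421), but it was well above background on 1 control and on no TGFß1 array, so no fold is given. The single gene called higher with TGFß1 was *Nlrp1a*, at 0.80. The median was 0.34 with TNFα and -0.28 with TGFß1. *Birc3* was called lower with TGFß1 as well, at -0.995 (q = 0.0114), where *Nod2* and *Ripk2* were higher than control.

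All 11 cytosolic nucleic acid sensors and adaptors were tested, with 3 called higher and 0 lower with TNFα and 0 higher and 4 lower with TGFß1. These are 27.3% higher with TNFα and 36.4% lower with TGFß1, beside 4.12% and 10.8% of all probes. With TNFα *Zbp1*, a sensor of Z-form nucleic acids, was at 2.33, and the RNA sensors *Ddx58* and *Ifih1* were at 0.90 and 0.82. With TGFß1 *Dhx58*, a relative of *Ddx58*, was at -1.54, *Ifi204* at -1.32, *Ddx58* at -1.07 and *Sting1*, the adaptor of the cytosolic DNA response, at -0.64, a call that was lost with the slide in the model. The median was 0.20 with TNFα and -0.50 with TGFß1. Of the C-type lectin, scavenger and secreted receptors 5 of 12 were tested, with 3 called higher with TNFα and 2 lower with TGFß1, beside the same shares of all probes. *Pglyrp2*, which cleaves peptidoglycan, and *Clec4e*, a receptor of mycobacterial glycolipids, were not well above background on any control. With TNFα *Pglyrp2* was at least 5.87-fold higher and *Clec4e* at least 3.25-fold. *Mrc1*, the mannose receptor, was at 3.58 with TNFα, with 1 of 3 controls well above background. *Ptx3*, a secreted pattern receptor, was at -5.43 with TGFß1 (q = 2.51e-06), and *Mrc1* was called lower there (q = 0.0457) without being well above background on any TGFß1 array, a call that was lost with the slide in the model. The median of the 5 genes with TNFα was 3.58 as fitted and 1.70 with *Pglyrp2* and *Clec4e* at their bounds. Probes of closely related genes, such as those of the *Nlrp1* family and *Ifi204*, may take signal from their relatives, which was not tested.

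**Figure D4:**
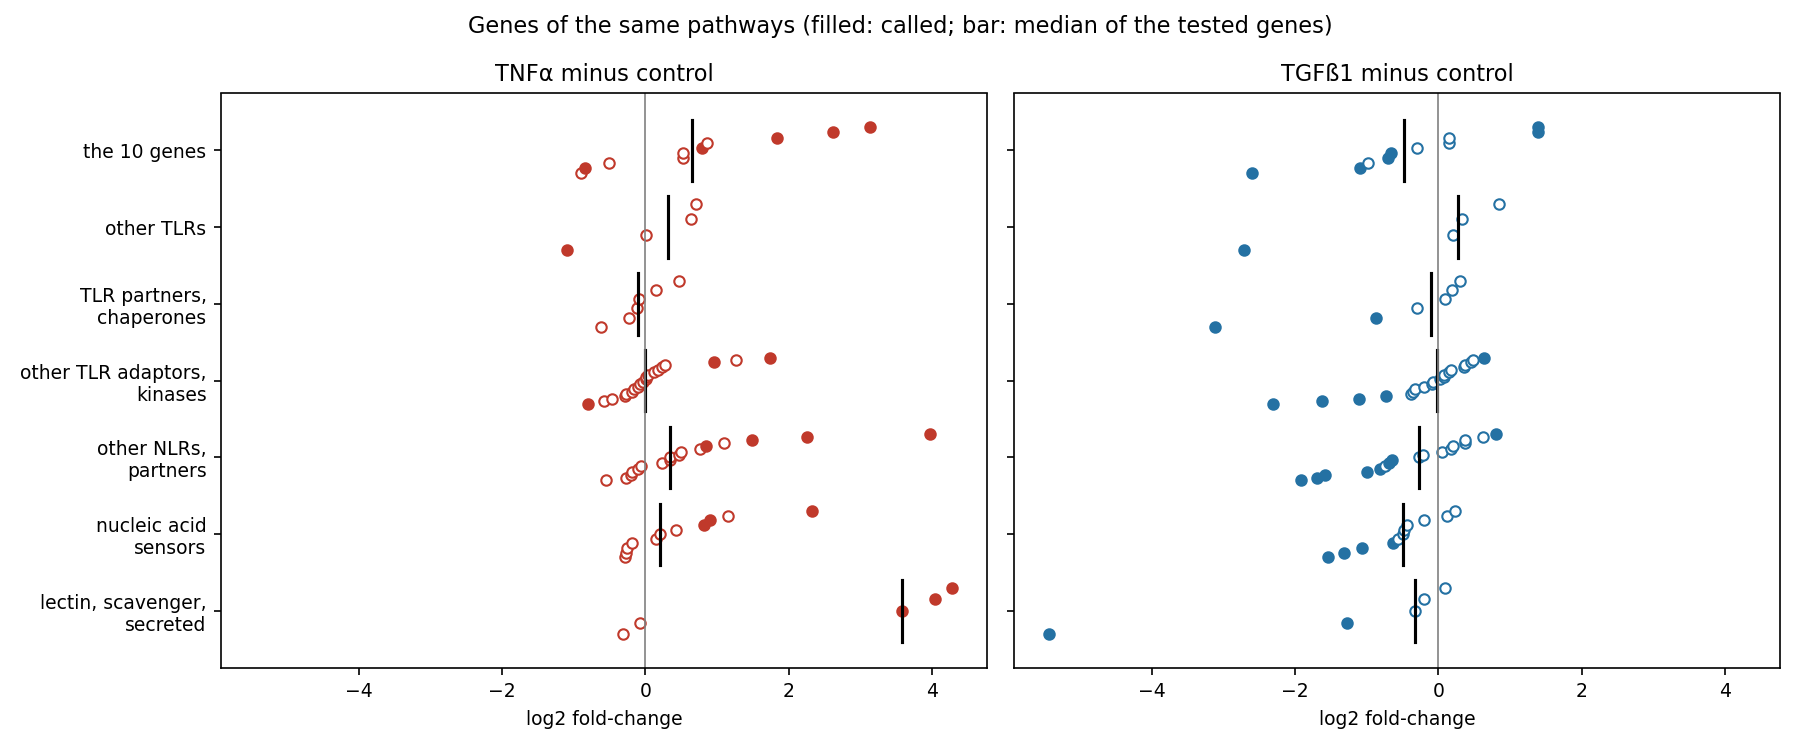
Fitted log2 fold-change against control of the 10 genes and of the tested genes of 6 pathway lists (rows) with TNFα (left) and TGFß1 (right); each point is a gene, filled points were called, and bars mark the median of the tested genes. Most filled points lie right of 0 with TNFα and left of 0 with TGFß1, and genes not above background in 1 group are drawn at their fitted value, which is no bound.

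Genes whose levels ran most like those of the called genes over the 15 arrays were searched among 13523 genes, as a description by Pearson's r over arrays that share groups and slides. *Ripk2* was the gene most like *Nod2* (r = 0.915), followed by *Wdr92* (0.909) and *Gch1* (0.905), while *Ripk2* itself was most like *Bid* (0.970) and *Oxnad1* (0.965). *Tlr2* was most like *Ampd3* (0.972), *Fas* (0.966) and *Glrx* (0.963). *Tlr4* was most like *Kitl* (0.979), *Cpq* (0.978) and *Hacl1* (0.978). *Tlr6* was most like *Pink1* (0.961), *Ctbs* (0.950) and *Tceal1* (0.945), *Cd14* was most like *Sema3c* (0.945), *Adamts7* (0.943) and *Orai2* (0.931), and *Ticam1* was most like *Rev3l* (0.959), *Csgalnact2* (0.958) and *Tspan17* (0.952).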

How the data were processed

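The authors hybridized Cyanine 3-labelled RNA to one-color whole mouse 60-mer arrays, scanned them, and extracted the spots with Agilent Feature Extraction 10.7.3.1 (version per the labels). The deposited scanner files hold processed signal intensities, already background-subtracted by that software, with no normalization between arrays; the series-wide table repeats these intensities, with a largest difference of 0. The study used limma, a q-value below 0.05 and a fold-change of 1.5, and its methods name no normalization between arrays. Each array has 62976 spots, 59305 of them not controls, for 56605 probes; no spot was saturated.

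Spots that the software marked as population outliers or as non-uniform were dropped. From the log2 intensity the array's 75th percentile over all spots that are not controls was subtracted, and the spots of each probe were averaged. Low signals carry the software's positive surrogate values, which can change the fold-change of dim probes. A probe was taken as well above background where at least 0.5 of its spots carried that mark, and was tested when this held on every array of at least 1 group, 29333 probes. Probes were named through RefSeq identifiers with a table of GRCm38.p6, which named 33767 probes. The main test was a linear model over group means of all 15 arrays in limma 3.58.1 (in R 4.3.3), two-sided, with moderated statistics and q-values by Benjamini-Hochberg over every tested probe, for 10 comparisons. The fit was run on simulated data for TNFα against control alone, with independent noise on each array and no effect of slide or run. That simulation therefore says nothing about such effects. A bound ("at least N-fold") is the mean of the group above background minus the mean, over the arrays of the other group, of the larger of the probe's level and the dimmest level well above background on that array. Named genes were the 10 members with all probes, the 3 called genes with the largest change in each list and comparison with control, and the 3 genes most like each called member, except that some genes which this rule or the lists name are not reported here. *Irak2*, *Nlrp1a*, *Birc2* and *Sting1* were named after their values were seen. Tables were made in Python 3.11.15. The members and lists were chosen with earlier results of these data known. No pairing of arrays is stated. Alternatives were the slide as a block, the slide with the run of label numbers (1 to 5, 6 to 10, 11 to 15) as a replicate block, median centring, quantile normalization, normexp, other filters, all spots, an intensity trend, the series table, a fit of the compared groups alone, and each array left out in turn. Dates in the scanner files were not used.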

Additional observations from a re-analysis of the deposited data

How the results depend on the processing

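No called difference of the 10 genes changed sign, but some differences that were not called did. With 1 array left out, *Nod1* with TGFß1 (0.15 over all arrays) ran from -0.33 to 0.61. *Tlr4* with IL-1β (-0.25 over all arrays) ran from -0.47 to 0.10 in such fits. For the comparisons of single genes, all 66 results kept their call with quantile normalization, the intensity trend, all spots and the series table. All 48 that could be tested kept their call when probes had to be well above background on all arrays. The number of the 10 genes called also changed, and smaller changes are not all listed. With the slide in the model 7 instead of 5 were called with TNFα. Median centring gave 5 instead of 7 for TNFα against TGFß1. Median centring and normexp each gave 4 instead of 6 for IL-6 against TGFß1. The slide and the run gave 7 instead of 5 for IL-6 against TNFα. The largest changes in proportion were as follows. With the slide and the run of label numbers as a replicate block, 9 instead of 5 were called with TNFα, 3 instead of 1 with IL-1β, and 5 instead of 3 for IL-1β against TNFα. With normexp, 3 instead of 6 were called with TGFß1, 0 instead of 1 with IL-1β, 4 instead of 7 for TNFα against TGFß1, and 2 instead of 4 for IL-1β against TGFß1. Why these calls were lost was not tested. With IL-1β 0 were called when probes had to be well above background on all arrays, which leaves *Nod2* untested, and 0 when only the compared groups were fitted. For IL-1β against IL-6, 0 were called without a filter on dim probes and 0 when only the compared groups were fitted. Leaving out 1 array gave 2 to 5 for IL-1β against TGFß1 (2 without IL-1β 10) and 0 to 1 for IL-1β against IL-6 (0 without IL-1β 10 or 15, or without IL-6 3, 8 or 13).

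The label numbers are not shared between groups. With group and slide removed, the 30 pairs that share a run but not a group all had an r over 0.1 across probes (0.114 to 0.671), against 2 of 60 pairs of different runs; with the group alone removed, 12 of 30 and 28 of 60 did. Over all probes the count with TNFα was 2986 (1209 higher and 1777 lower), 4513 with the slide and the run, 1896 without TNFα 4, and 723 higher and 1706 lower with median centring. With TGFß1 5283 were called, and 3482 with normexp. With IL-1β 74 were called, 320 with the slide and the run, 47 with median centring, 16 with only the compared groups, and 36 to 47 without control 1, control 11 or any IL-1β array. With IL-6 19 were called (955 with an unadjusted p below 0.05), 37 with the slide, 228 with the slide and the run, 12 with median centring, 9 without a filter, 0 with only the compared groups, 5 without control 1 or control 6, and 6 without IL-6 8. Where no construction is named, the cause was not tested.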

Other observations

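For *Tlr3* and *Nod1*, the array of the run 6 to 10 was the brightest of its group in all 5 groups, and for *Tlr2* and *Tlr4* in 4 of 5. The other genes did not share this: it held in 2 groups for *Tlr6*, *Cd14*, *Myd88* and *Ticam1*, in 1 for *Nod2* and in 0 for *Ripk2*. Among 29256 tested probes with a value on each array, this held in 5 groups for 4.56% and in 4 groups for 7.84%. These arrays were control 6 and TNFα 9 on slide 2 and TGFß1 7, IL-6 8 and IL-1β 10 on slide 1.

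Genes known to respond to the added cytokines were looked at beside the receptors. With TNFα *Tnfaip3*, an NF-κB target that restrains the pathway, had a log2 fold-change of 3.84 and the chemokine gene *Cxcl1* 3.64, and with IL-1β *Cxcl1* had 4.14. With TGFß1 *Cxcl1* had -3.09, and with IL-6 *Socs3*, the feedback inhibitor of its receptor, had 2.39 (q = 0.00116). The IL-6 arrays thus held a called response of *Socs3* beside 0 of the 10 receptor and adaptor genes called by limma, of which 2 had an unadjusted p below 0.05.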
